A study of Mus musculus with 12 samples.

Results

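The transcripts of the mitochondrial genome were examined gene by gene in extensor digitorum longus (EDL), a fast-twitch hind limb muscle of the mouse. Members were all rows of the expression table whose gene name starts with mt-, which gave 13 of the 17752 genes in the table. All 13 were protein-coding mRNAs, so every mRNA of the mitochondrial genome was present, whereas none of its 2 ribosomal RNAs and none of its 22 transfer RNAs was listed. RNA-seq was performed on 12 libraries from male mice, in 4 groups of 3, made of the labelled genotypes WT and strNrip1-/-, each sedentary or trained. Per the study's methods, Nrip1 fl/fl mice (C57BL/6J) were crossed to mice that carry Cre under the muscle creatine kinase promoter (C57BL/6JN), which acts in both heart and skeletal muscle, and littermates without Cre served as WT controls. Training was voluntary wheel running from 8 weeks of age, and mice that ran little were left out. Nrip1 encodes RIP140, a nuclear receptor coregulator. The comparisons address how muscle transcripts differ between the labelled genotypes and with training.

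The mitochondrial genome is a small circular DNA that is present in many copies per cell. It encodes membrane-embedded core subunits of respiratory chain complexes I, III and IV and of ATP synthase (complex V), while the remaining subunits come from nuclear genes and are imported. A dedicated polymerase copies each strand into long precursors, which are cut mostly at the transfer RNAs that separate the mRNAs. Most of the mRNAs are then given short poly(A) tails. Steady-state levels of the mRNAs differ because they are stabilized and degraded at different rates.

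Of the 13 members, 7 encode subunits of complex I (mt-Nd1, mt-Nd2, mt-Nd3, mt-Nd4, mt-Nd4l, mt-Nd5 and mt-Nd6), 1 encodes cytochrome b of complex III (mt-Cytb), 3 encode the core subunits of cytochrome c oxidase, complex IV (mt-Co1, mt-Co2 and mt-Co3), and 2 encode subunits of ATP synthase (mt-Atp6 and mt-Atp8). They lie between positions 2751 and 15288 of chromosome M (GRCm38, GENCODE annotation), and mt-Nd6 alone is encoded on the minus strand. Neighbouring reading frames overlap at 4 places. The 3 longest overlaps are shown because reads within them cannot be given to 1 gene, and in the remaining one mt-Atp6 and mt-Co3 share 1 base (position 8607). The sequences are read 5′ to 3′ on the plus strand from the annotated transcripts. In the junction of mt-Nd4l and mt-Nd4 (chrM:10157-10183), capitals mark the 7 bases that belong to both genes. In the junction of mt-Atp8 and mt-Atp6 (chrM:7927-7969), all 43 bases are shared, and capitals mark the start codon of mt-Atp6 and the stop codon of mt-Atp8. In the junction of mt-Nd5 and mt-Nd6 (chrM:13544-13573), capitals mark the 14 bases that both genes use on opposite strands.
mt-Nd4l/mt-Nd4: acctactacaATGCTAAaaattattct
mt-Atp8/mt-Atp6: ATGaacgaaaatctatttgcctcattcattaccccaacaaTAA
mt-Nd5/mt-Nd6: atactcaaTTAATCTCGAGTAAtctcgata

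The first and second junctions lie within mRNAs that are known to carry both reading frames on a single molecule, so each of these pairs shares its RNA. The study's methods name the NEBNext Ultra RNA Library Prep Kit. Whether the libraries and the counting kept strand was not stated in the sources used here. Without strand, reads from the shared bases of mt-Nd5 and mt-Nd6, and from precursor RNA antisense to either gene, cannot be told apart. The annotated transcripts of mt-Co3, mt-Nd4 and mt-Cytb stop 1 base into their last codon. Their last bases are shown with that lone base in capitals, since the stop codon of such mRNAs is known to be completed by the poly(A) tail.
mt-Co3: atttattgatgaggatctT
mt-Nd4: attacaggcctgacaataT
mt-Cytb: atactaaaattatatccaT

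Before the mitochondrial mRNAs were compared, the targeted gene was examined, and it went against the genotype labels. Nrip1 lay between 2.53 and 4.76 FPKM (fragments per kilobase of transcript, scaled to sequencing depth) in all libraries labelled WT and between 14.9 and 20.7 FPKM in all libraries labelled strNrip1-/-. The floxed segment holds the last exon with the coding sequence, and the table gives 1 value per gene, so which exons gave this signal was not tested. Every genotype direction given here therefore rests on the labels, and replicates are only known to be separate samples, so p-values measure the spread between these samples. Fast-fiber genes prevailed in every library, and the summed level of 10 fast-fiber markers was 99220 to 157800 FPKM, against 115.8 to 721.8 FPKM for 8 slow-fiber markers, all of which were detected. The spacing of low FPKM values placed the depth at 20.2 M to 29.4 M fragments, where M stands for mega. At this depth, each of the 6 longest members rested on at least 0.224 M fragments in every library, so counting error was negligible beside the spread between libraries.

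The same spacing also gave the length that had been taken off each transcript, which corresponds to the mean fragment length. In libraries labelled WT it was 344 to 352 nt (sedentary) and 354 to 358 nt (trained), and in those labelled strNrip1-/- it was 342 to 358 nt (sedentary) and 336 to 340 nt (trained), so the last group had the shortest fragments. This bears on 3 members that are about as long as a fragment or shorter, namely mt-Atp8 (204 nt), mt-Nd4l (297 nt) and mt-Nd3 (348 nt). The FPKM of mt-Atp8 exceeded that of mt-Atp6 by 4.78-fold to 6.17-fold, and that of mt-Nd4l exceeded that of mt-Nd4 by 2.21-fold to 2.97-fold, although both members of each pair are known to sit on the same RNA. The ratio of mt-Atp8 to mt-Atp6 had its lowest mean in labelled strNrip1-/- trained libraries, at 4.78, 5.24 and 5.27, and overlapped there with the sedentary libraries of that genotype, which ran from 5.09 to 6.04. Levels and shares that include mt-Atp8 or mt-Nd4l are therefore also given without them. The part that fragment length plays in the group differences of these short mRNAs was not tested.

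By mean FPKM over the 12 libraries, 7 members were among the 7 most abundant rows of the table, and all 13 were among the first 24. mt-Atp8 stood first at 191700 FPKM, with the reservation on its length given above. The other mRNAs of complexes IV and V followed, with mt-Co2 at 46500, mt-Co1 at 45000, mt-Co3 at 40980 and mt-Atp6 at 34890 FPKM, together with mt-Nd4l at 46350 FPKM. mt-Cytb was at 27330 FPKM. The remaining complex I mRNAs were lower, with mt-Nd1 at 26150, mt-Nd2 at 18110, mt-Nd4 at 17830, mt-Nd6 at 14040, mt-Nd3 at 9827 and mt-Nd5 at 9095 FPKM. The ranges over the 12 libraries overlapped between all neighbours in this order except mt-Atp8 and mt-Co2. These ranges pool the 4 groups, and within each library mt-Nd1, for example, was above mt-Nd2. mt-Nd6, the single mRNA encoded on the other strand, was above the adjoining mt-Nd5 in every library (at least 11880 against at most 10960 FPKM). The reservation on strand given above applies to both values. Together the 13 mRNAs made up 42.2% to 44.6% (sedentary) and 43.8% to 47.3% (trained) of all FPKM in libraries labelled WT, and 51.2% to 52.8% (sedentary) and 43.7% to 45.7% (trained) in those labelled strNrip1-/-. The sedentary labelled strNrip1-/- libraries were thus above the other 9, a description that counts the 2 shortest mRNAs. Without mt-Atp8 and mt-Nd4l, the remaining mRNAs made up 27.8% to 29.4% of all FPKM there, against 23.01% to 26.5% in the other 9. With these 2 mRNAs also left out of the total, the shares were 37.1% to 38.0%, against 28.5% to 32.8%.

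**Figure D1:**
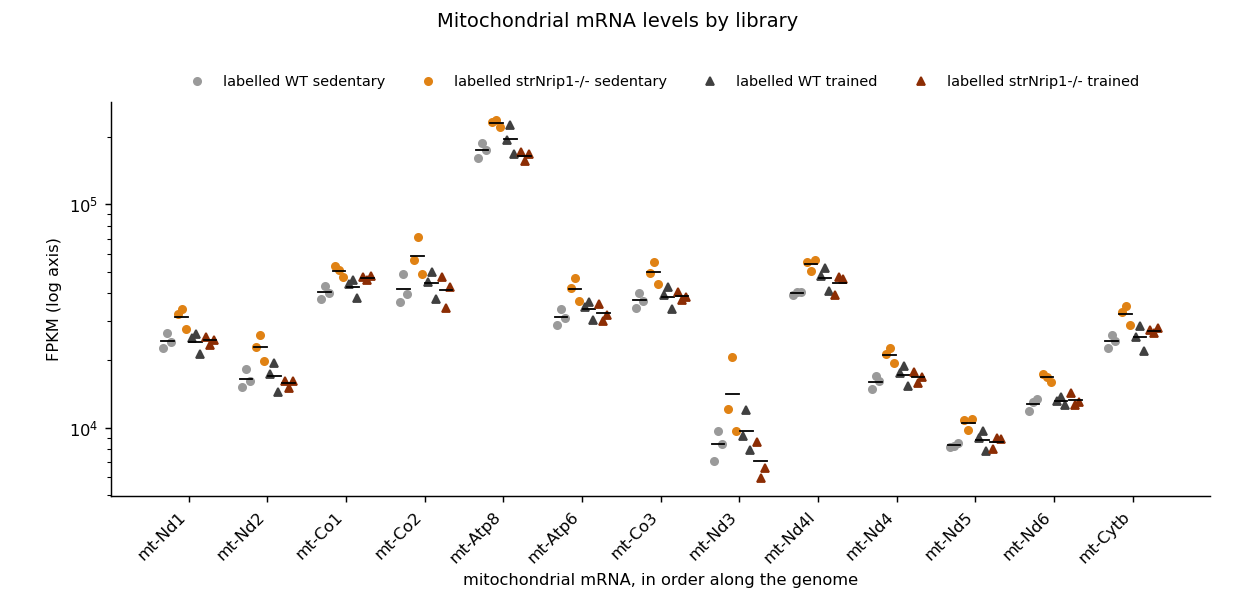
FPKM of each mitochondrial mRNA (log axis, in genome order) in every library, with 3 points per labelled group and a black line at the group mean. The labelled strNrip1-/- sedentary points are the highest group for all 13 mRNAs by mean, mt-Atp8 stands above all others at 156800 to 239300 FPKM, and mt-Nd3 spreads most, from 5932 to 20640 FPKM.

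In sedentary muscle, all 13 mitochondrial mRNAs had a higher mean in labelled strNrip1-/- than in labelled WT libraries, by 0.32 (mt-Co1) to 0.68 (mt-Nd3) on the log2(FPKM + 0.5) scale, with a median of 0.41 against 0.00 for all genes tested. With quantile normalization, the values of mt-Co1 and mt-Nd4l turned negative and that of mt-Atp6 was 0. That method gives a row that keeps its rank the same value in every library. For the most abundant rows, values at or near 0 can therefore follow from the method. The median was −0.01 when libraries were scaled to the mitochondrial mRNAs themselves, which removes their shared change by construction. None of the 13 was called by limma (adjusted p-value under 0.05 and fold change above 1.2, over 12744 genes), and 3.51% of all genes tested were. Before adjustment, p-values were under 0.05 for 13 of 13 members and for 16.3% of all genes. The smallest adjusted p-value was 0.0505, for mt-Nd6, and the largest was 0.248, for mt-Atp8. The libraries of the groups did not overlap for 12 of 13 members, higher in labelled strNrip1-/-, as did 9.79% of all genes tested, and mt-Nd3 was the exception. The members are known to be cut from shared precursors, so they are not independent of one another.

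The call depended on how the libraries were scaled. The median of the 13 members stayed 0.39 above that of all genes when every library was brought to the same FPKM sum, a scaling that moved the median of all genes by −0.14, and 2 members were then called (mt-Nd2 and mt-Atp6). When only genes outside the mitochondrial genome were brought to the same sum, the median member was at 0.49, against 0.07 for all genes. Of the 13 members, 12 were then called, mt-Nd3 being the exception. The share of all genes called under these and the other alternative settings was not counted. Without labelled WT sedentary replicate 1, 8 of 13 members had an unadjusted p-value under 0.05 and the median was 0.35. In bulk muscle, fewer cells of a type and less RNA per cell cannot be told apart.

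In trained muscle no mitochondrial mRNA had libraries that separated the labelled genotypes. Values ran from −0.45 (mt-Nd3) to 0.15 (mt-Co1) with a median of −0.03, and 5 of 13 were positive. The sign of that median was not stable, since it was 0.04 without labelled WT trained replicate 2, 0.01 without labelled strNrip1-/- trained replicate 2 and −0.11 without labelled WT trained replicate 3. It was also positive with the same FPKM sum in every library (0.04), the same sum outside the mitochondrial genome (0.01) and quantile normalization (0.07). No member was called by limma, with none at an unadjusted p-value under 0.05 and a smallest adjusted p-value of 0.367, while 5.98% of all genes were called. The number of members under 0.05 before adjustment depended on scaling. It was 3 with the same FPKM sum in every library (smallest limma adjusted p-value 0.0524) and 3 with the same sum outside the mitochondrial genome. With quantile normalization it was 5, and with scaling to the mitochondrial mRNAs 4. No member was called with any of these scalings. No member had groups without overlap in either direction, against 13.9% of all genes higher and 13.4% lower in labelled strNrip1-/-. The widest 95% confidence interval, that of mt-Nd3, ran from −1.03 to 0.13, and that of mt-Nd6, the most precisely measured member, from −0.20 to 0.23. The sedentary estimate of mt-Nd6, 0.39, lay outside its trained interval, but the sedentary interval of mt-Nd6 ran from 0.18 to 0.60 and overlapped the trained one. Whether the genotype effects differ is tested by the interaction below, where the limma adjusted p-value of mt-Nd6 was 0.596.

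Training itself was compared within each labelled genotype, and these comparisons share their libraries with the genotype comparisons. In labelled WT muscle, members ran from −0.01 (mt-Nd1) to 0.21 (mt-Nd4l) with a median of 0.08. The median was 0.01 without labelled WT trained replicate 2, 0.03 without labelled WT sedentary replicate 1, 0.13 without labelled WT sedentary replicate 2 and 0.16 without labelled WT trained replicate 3. It was 0.03 with the same FPKM sum in every library and 0 with quantile normalization. None was called by limma, nor was any of the 12744 genes tested (0%), and no member had an unadjusted p-value under 0.05. The groups did not overlap for 1 member, mt-Nd4l, which was higher after training, as were 7.76% of all genes.

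In labelled strNrip1-/- muscle, all 13 members had a lower mean after training, from −0.94 (mt-Nd3) to −0.09 (mt-Co1) with a median of −0.34, against 0.01 for all genes. mt-Co1 turned positive when every library was brought to the same FPKM sum (0.08, where the median of all genes was 0.16) and with quantile normalization (0.17). Quantile normalization, which sets values by rank, also brought mt-Atp8, mt-Atp6 and mt-Co3 to 0.00. The median was 0.01 when libraries were scaled to the mitochondrial mRNAs themselves, which removes their shared change by construction. Again limma called no member and no gene at all (0%). With the same FPKM sum in every library, 2 members were called (mt-Nd2 and mt-Atp8). The same sum outside the mitochondrial genome gave 1 call (mt-Nd2), and scaling to the mitochondrial mRNAs gave 1 (mt-Nd3). The share of all genes called with these scalings was not counted. Unadjusted p-values lay under 0.05 for 10 of 13 members and for 12.1% of all genes, and the smallest adjusted p-value was 0.231, for mt-Nd2. The groups did not overlap for 12 of 13 members, lower after training, as for 7.5% of all genes, and mt-Co1 was the exception. The number with an unadjusted p-value under 0.05 fell to 4 without labelled strNrip1-/- trained replicate 2 and to 6 without labelled strNrip1-/- sedentary replicate 1.

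The interaction tests whether the genotype effects differ between sedentary and trained muscle. All 13 estimates were negative, from −1.13 (mt-Nd3) to −0.17 (mt-Co1), with a median of −0.43, and that of mt-Co1 turned positive with the same FPKM sum in every library (0.050) and with quantile normalization (0.23). Unadjusted p-values lay under 0.05 for 8 of 13 members and for 7.76% of all genes. Leaving out each library in turn gave 3 to 11 members, with 3 without labelled WT sedentary replicate 1, 4 without labelled WT trained replicate 1 or labelled strNrip1-/- trained replicate 2, and 5 without labelled strNrip1-/- sedentary replicate 1. The count was 1 without the filter on low values, 3 with quantile normalization and 12 with the same sum outside the mitochondrial genome. No member was called by limma, with adjusted p-values of 0.579 to 0.842, and no gene of the table was called (0%). The genotype effects on the mitochondrial mRNAs were therefore not shown to differ between sedentary and trained muscle.

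**Figure D2:**
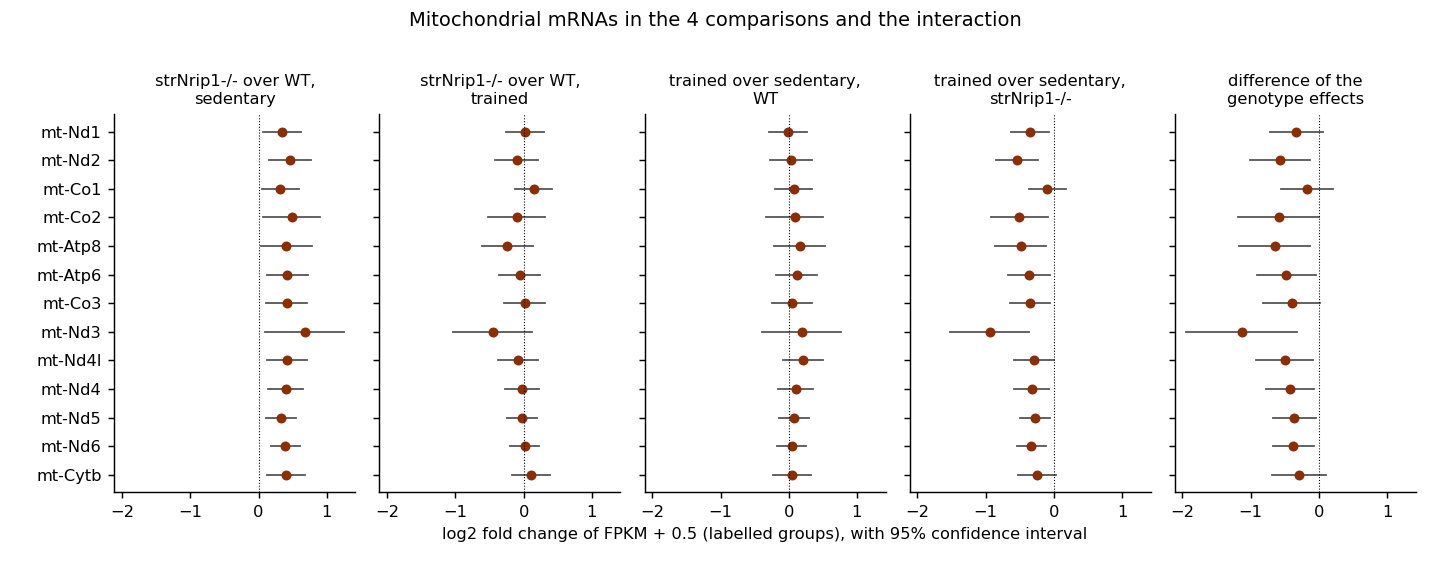
Log2 fold change of each mitochondrial mRNA with its 95% confidence interval from limma (x axis, log2 of FPKM + 0.5), in 4 comparisons of labelled groups and for the difference of the genotype effects. All 13 points lie above 0 in the first panel, on both sides of 0 in the second, and below 0 in both panels on the far right, with mt-Nd3 farthest out at 0.68, −0.94 and −1.13.

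Among complex I mRNAs, mt-Nd6 came closest to a call. It encodes a membrane subunit of NADH:ubiquinone oxidoreductase. Its level was 11880, 13050 and 13510 FPKM (sedentary) and 13210, 13730 and 12650 FPKM (trained) in libraries labelled WT, and 17410, 16900 and 16080 FPKM (sedentary) and 14280, 12700 and 13060 FPKM (trained) in those labelled strNrip1-/-. The sedentary labelled strNrip1-/- libraries were above all 9 others, and the other groups overlapped. The share of all genes with such a separation from 9 libraries was not counted, here or for the mRNAs below. The log2 fold change between labelled genotypes in sedentary muscle was 0.39 (SE 0.0963, limma adjusted p-value 0.0505), and it was called with either other pseudocount, a filter at a mean of 5 FPKM, no variance trend, quantile normalization, scaling to genes outside the mitochondrial genome, or nuclear copies summed. It was not called without the filter on low values, with the same FPKM sum over all genes, with the replicate block or with only the 6 libraries compared, and scaling to the 11 mitochondrial mRNAs gave −0.024. With each library left out in turn, the limma adjusted p-value ran from 0.0437 (without labelled WT trained replicate 2, the only such call) to 0.204 (without labelled WT sedentary replicate 1). Training in labelled strNrip1-/- muscle gave −0.33 (SE 0.0963, limma adjusted p-value 0.243).

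mt-Nd2 encodes another membrane subunit of complex I. It was at 15290, 18310 and 16160 FPKM (sedentary) and 17330, 19450 and 14470 FPKM (trained) in libraries labelled WT, and 23080, 26000 and 19880 FPKM (sedentary) and 16200, 15000 and 16160 FPKM (trained) in those labelled strNrip1-/-. Its sedentary labelled strNrip1-/- libraries were again above all 9 others, with replicate 3 (19880 FPKM) close to trained labelled WT replicate 2 (19450 FPKM). The sedentary genotype difference was 0.47 (SE 0.140, limma adjusted p-value 0.107), and the training difference in labelled strNrip1-/- muscle was −0.53 (SE 0.140, limma adjusted p-value 0.231), the largest in size after that of mt-Nd3.

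mt-Nd5, the longest member at 1824 nt, encodes a proton-pumping subunit of complex I. Its 3 labelled WT sedentary libraries were close together at 8185, 8282 and 8578 FPKM, and the labelled strNrip1-/- sedentary libraries were at 10780, 9813 and 10960 FPKM. The trained libraries were at 9011, 9654 and 7876 FPKM for labelled WT and at 8051, 9038 and 8914 FPKM for labelled strNrip1-/-. Sedentary labelled strNrip1-/- values were thus the highest, by 0.33 (SE 0.1005, limma adjusted p-value 0.110) over sedentary labelled WT. Their replicate 2 (9813 FPKM) was close to trained labelled WT replicate 2 (9654 FPKM). mt-Nd1 and mt-Nd4 gave sedentary genotype differences of 0.35 and 0.40 (limma adjusted p-values 0.185 and 0.0929) and training differences in labelled strNrip1-/- muscle of −0.34 and −0.32 (adjusted p-values 0.331 and 0.310).

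mt-Nd4l, which shares its mRNA with mt-Nd4, gave 0.42 in the sedentary genotype comparison (limma adjusted p-value 0.129) and −0.28 for training in labelled strNrip1-/- muscle (adjusted p-value 0.424). It was the only member whose trained labelled WT libraries, at 47690, 52110 and 40970 FPKM, all exceeded the sedentary ones, at 39440, 40610 and 40700 FPKM. Since mt-Nd4 on the same mRNA did not show this separation, and mt-Nd4l is shorter than the fragments, the value stands with the reservation on its length. That difference of 0.21 (SE 0.134) was not called (limma adjusted p-value 0.723).

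mt-Nd3 encodes a small membrane subunit of complex I and had the largest standard error of the 13. It was at 7110, 9689 and 8483 FPKM (sedentary) and 9143, 11980 and 7967 FPKM (trained) in libraries labelled WT, and 12080, 20640 and 9645 FPKM (sedentary) and 8640, 5932 and 6624 FPKM (trained) in those labelled strNrip1-/-. Labelled strNrip1-/- sedentary replicate 2 was the highest of the 12, and the sedentary groups overlapped. Its differences were 0.68 (SE 0.263, limma adjusted p-value 0.219) for genotype in sedentary muscle and −0.94 (SE 0.263, adjusted p-value 0.236) for training in labelled strNrip1-/- muscle. Without labelled strNrip1-/- sedentary replicate 2 they were 0.37 and −0.63, and mt-Nd4l then had the larger sedentary genotype difference (0.47). Without replicate 3 of that group they were 0.92 and −1.18. The genotype difference in trained muscle, −0.45, was −0.29 without labelled WT trained replicate 2, and the training difference in labelled WT muscle, 0.19, was 0.03 without that library and 0.32 without labelled WT trained replicate 3.

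Complex III is represented by mt-Cytb, whose product carries electrons within the cytochrome bc1 complex. It was at 22800, 26050 and 24430 FPKM (sedentary) and 25520, 28510 and 22060 FPKM (trained) in libraries labelled WT, and 32930, 35180 and 28820 FPKM (sedentary) and 27380, 26450 and 27870 FPKM (trained) in those labelled strNrip1-/-. The 3 sedentary labelled strNrip1-/- libraries were the highest of the 12, with replicate 3 (28820 FPKM) close to trained labelled WT replicate 2 (28510 FPKM). The sedentary genotype difference was 0.40 (SE 0.128, limma adjusted p-value 0.130). Training in labelled strNrip1-/- muscle gave −0.24 (SE 0.128, adjusted p-value 0.483).

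Among the complex IV mRNAs, mt-Co1 encodes the catalytic subunit of cytochrome c oxidase and was at 37840, 43090 and 39970 FPKM (sedentary) and 43750, 46040 and 37890 FPKM (trained) in libraries labelled WT, and 52790, 50670 and 47070 FPKM (sedentary) and 47390, 45590 and 47850 FPKM (trained) in those labelled strNrip1-/-. The sedentary labelled genotypes did not overlap, with a difference of 0.32 (SE 0.123, limma adjusted p-value 0.220), whereas trained and sedentary labelled strNrip1-/- libraries did, with a difference of −0.09 (SE 0.123, adjusted p-value 0.806), the smallest of the 13. The interval of that difference ran from −0.36 to 0.18.

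mt-Co2 and mt-Co3 encode the other core subunits. mt-Co3 was at 34440, 40060 and 37030 FPKM (sedentary) and 39070, 42440 and 33920 FPKM (trained) in libraries labelled WT, and 49430, 55190 and 44080 FPKM (sedentary) and 40700, 37170 and 38270 FPKM (trained) in those labelled strNrip1-/-. Again the sedentary labelled strNrip1-/- libraries were above all others. Its differences were 0.41 (SE 0.135, limma adjusted p-value 0.143) for genotype in sedentary muscle and −0.35 (adjusted p-value 0.343) for training in labelled strNrip1-/- muscle. mt-Co2 gave 0.49 and −0.50 in these comparisons (SE 0.191, limma adjusted p-values 0.225 and 0.341), with the largest spread within groups after mt-Nd3.

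For complex V, mt-Atp6 encodes subunit a, which forms part of the proton path of ATP synthase. It was at 28750, 34050 and 30930 FPKM (sedentary) and 34670, 36510 and 30410 FPKM (trained) in libraries labelled WT, and 42050, 46970 and 36780 FPKM (sedentary) and 35750, 29930 and 31900 FPKM (trained) in those labelled strNrip1-/-. The sedentary labelled strNrip1-/- libraries were the 3 highest, with replicate 3 close to the trained labelled WT replicate 2. The sedentary genotype difference was 0.42 (SE 0.138, limma adjusted p-value 0.142). mt-Atp8, on the same mRNA, gave 0.41 in that comparison (SE 0.168, limma adjusted p-value 0.248) and, for training in labelled strNrip1-/- muscle, −0.49 against −0.36 for mt-Atp6 (adjusted p-values 0.304 and 0.343).

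The balance among the mitochondrial mRNAs was then described as the share of each in their summed FPKM, which does not depend on how libraries are scaled. Without mt-Atp8 and mt-Nd4l, mt-Co3 had the steadiest share of the 11 remaining mRNAs over the 12 libraries (coefficient of variation, CV, 1.25%), followed by mt-Atp6 (2.35%) and mt-Nd4 (2.39%). mt-Nd5 (9.56%) and mt-Nd3 (23.1%) varied most. The share of mt-Co1 was 15.7%, 15.1% and 15.4% (sedentary) and 15.6%, 15.2% and 15.7% (trained) in libraries labelled WT, and 15.1%, 13.02% and 15.2% (sedentary) and 16.4%, 17.8% and 17.4% (trained) in those labelled strNrip1-/-. All 3 libraries of the last group were thus above the other 9. With all 13 mRNAs in the sum the same was seen, at 9.502% to 9.92% in labelled strNrip1-/- trained against at most 8.58% elsewhere. The labelled strNrip1-/- trained libraries also had the shortest fragments, at 336 to 340 nt. The part of fragment length in the shares of that group was not tested.

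Shares of 3 other mRNAs were examined in the same group. The share of mt-Nd2 among the 11 was 5.61%, 5.87% and 5.88% in labelled strNrip1-/- trained libraries, below the 5.98% to 6.68% of the other 9, but over all 13 mRNAs its shares there (3.25% to 3.30%) overlapped those of labelled WT trained libraries (3.21% to 3.35%). mt-Cytb was at 9.483%, 10.35% and 10.14% there, above the 9.042% to 9.476% of the other 9, by the narrowest margin in replicate 1. mt-Nd3 was at 2.99%, 2.32% and 2.41%, overlapping the others, which ran from 2.96% to 5.30%. All 11 mRNAs were looked at in all 4 groups, and separation was not confined to this group. Among the 11, mt-Nd1 was at 9.31% to 9.43% in labelled WT sedentary libraries, above the 8.69% to 9.21% of the other 9. mt-Nd2 was at 6.43% to 6.68% in labelled strNrip1-/- sedentary libraries, above the others by a margin lost in rounding. These shares were given no test. Labelled strNrip1-/- sedentary replicate 2 stood apart from its group, with the highest share of mt-Nd3 (5.30%) and of mt-Co2 (18.3%) and the lowest of mt-Co1 (13.02%) and mt-Nd5 (2.52%). Without that library, the median sedentary genotype difference of the 13 members was 0.35 instead of 0.41, and 11 of 13 had an unadjusted p-value under 0.05.

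**Figure D3:**
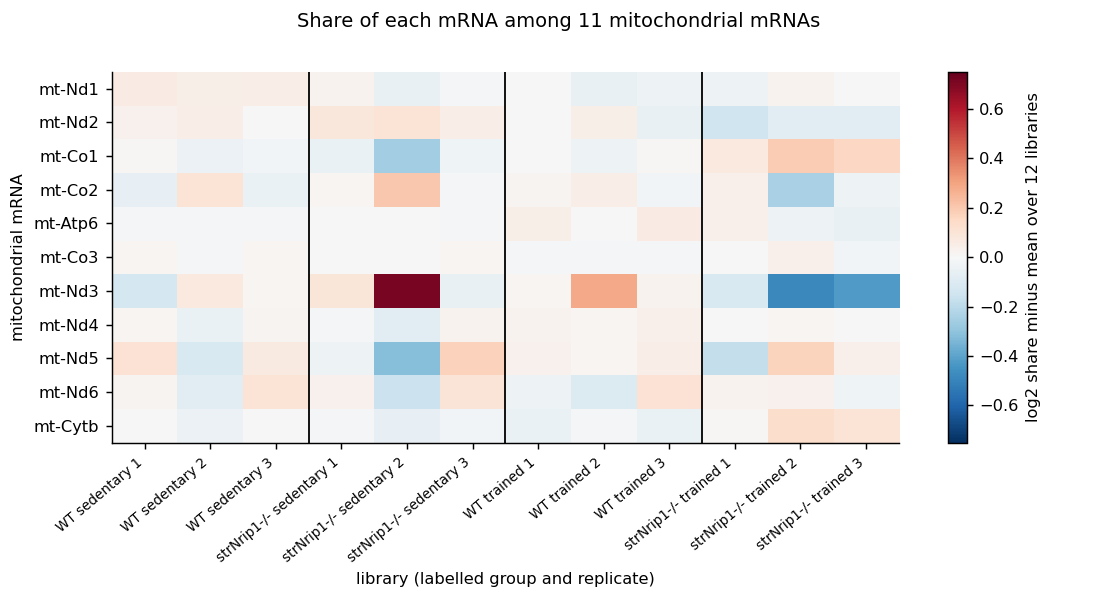
Log2 share of each mRNA in the summed FPKM of 11 mitochondrial mRNAs (rows, without mt-Atp8 and mt-Nd4l) in every library (columns, by labelled group), relative to its mean over the 12 libraries. mt-Co1 is positive in all 3 labelled strNrip1-/- trained libraries and mt-Nd2 negative, mt-Co3 is nearly blank throughout, and mt-Nd3 reaches 0.71 in labelled strNrip1-/- sedentary replicate 2.

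For mt-Nd3 and mt-Co2, the table also listed near-identical nuclear pseudogenes at high FPKM. Fragments of mitochondrial DNA have been copied into the nuclear genome, and 10 genes of the table had exons that match the mitochondrial genome at 90% identity or more. Of these, 8 averaged at most 3.33 FPKM over the 12 libraries, but 2 were abundant. Gm28438 (chromosome 1, 24612775 to 24613119), a copy of mt-Nd3, averaged 7730 FPKM, and Gm28661 (chromosome 1, 24614885 to 24615565), a copy of mt-Co2, averaged 2192 FPKM. Values of mt-Nd3 and mt-Co2 are therefore uncertain, because the counting could split their reads with these copies. The origin of the pseudogene FPKM was not tested.

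Gm28438 was at 7523, 8362 and 6576 FPKM (sedentary) and 6703, 7364 and 5413 FPKM (trained) in libraries labelled WT, and 9885, 9665 and 10050 FPKM (sedentary) and 7673, 6255 and 7284 FPKM (trained) in those labelled strNrip1-/-. In labelled strNrip1-/- sedentary libraries the copy was almost level while mt-Nd3 ranged from 9645 to 20640 FPKM. When mt-Nd3 was summed with its copy, the sedentary groups no longer overlapped, at 14630, 18050 and 15060 FPKM for labelled WT and 21970, 30300 and 19700 FPKM for labelled strNrip1-/-. The genotype difference in sedentary muscle became 0.57 (SE 0.190, limma adjusted p-value 0.145), and that of training in labelled strNrip1-/- muscle became −0.75 (SE 0.190, adjusted p-value 0.210). 

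For mt-Co2, the FPKM listed for all its copies ranged from 0.911 in labelled WT trained replicate 2 to 9863 in labelled strNrip1-/- trained replicate 2. That last library had the lowest mt-Co2 of the 12, 34290 FPKM, and reached 44150 FPKM with the copies, so the spread within its group shrank from 6491 to 2501 FPKM (SD, n = 3). The CV of the share of mt-Co2 among the 11 mRNAs fell from 7.28% to 4.10% when members were summed with their copies, and that of mt-Nd3 from 23.1% to 13.6%. The CV rose for mt-Atp6 (2.35% to 3.23%), mt-Nd2 (5.21% to 5.71%) and mt-Nd4 (2.39% to 2.51%), and fell for the rest. The training difference of mt-Co2 in labelled strNrip1-/- muscle went from −0.50 to −0.33 (SE 0.164, limma adjusted p-value 0.439), and its genotype difference in trained muscle turned from −0.10 to 0.09. With copies included, mt-Co1 kept the highest shares in the labelled strNrip1-/- trained libraries, at 15.9%, 16.8% and 16.7%, against at most 15.3% in the other 9. The separation of mt-Nd2 in labelled strNrip1-/- sedentary libraries was lost, with replicate 3 at 6.215% against 6.256% in labelled WT trained replicate 2. The other share separations named above were kept.

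**Figure D4:**
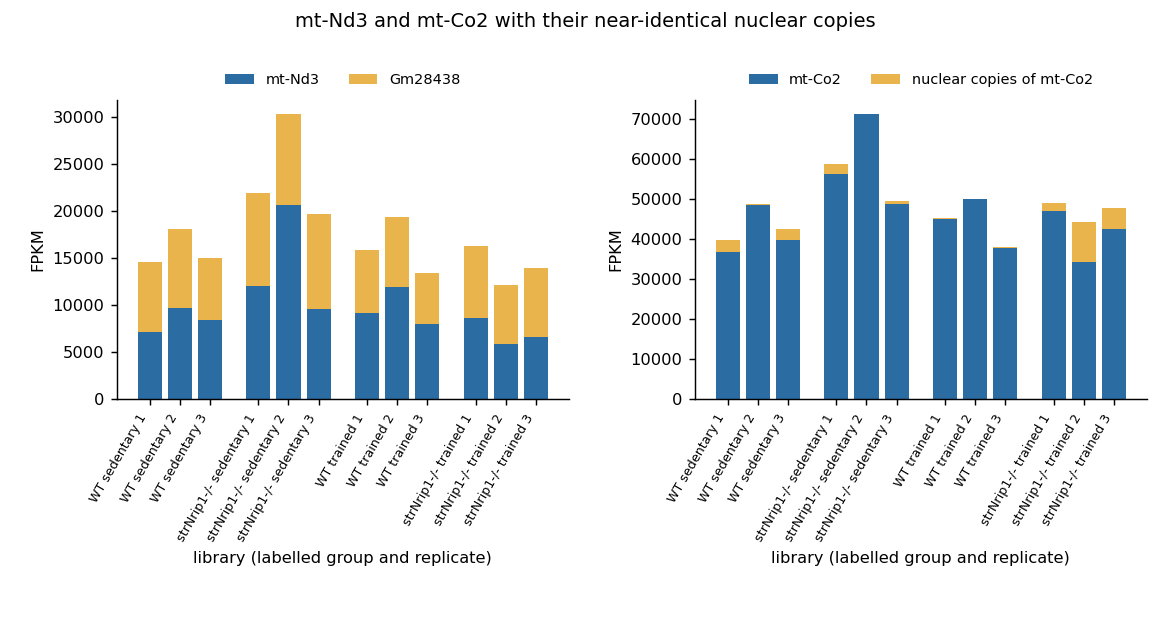
FPKM of mt-Nd3 (left) and mt-Co2 (right) in every library, by labelled group and replicate, stacked with the FPKM listed for near-identical nuclear copies. Gm28438 adds 5413 to 10050 FPKM to mt-Nd3 in every library, while the copies of mt-Co2 add between 0.911 and 9863 FPKM.

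Complexes I, III, IV and V are built from both genomes, so the nuclear subunit genes were set beside the mitochondrial ones. In sedentary muscle the nuclear genes of these complexes had median differences (labelled strNrip1-/- over labelled WT) of 0.22 over 36 genes of complex I, 0.28 over 9 of complex III, 0.28 over 12 of complex IV and 0.28 over 15 of complex V, against 0.00 for all genes. Positive differences were found for 33 of 36, 9 of 9, 12 of 12 and 15 of 15 of these genes. Of them, 1, 1, 1 and 2 were called by limma, all higher, where 3.51% of all genes tested were called, among them Ndufs1 (0.33, adjusted p-value 0.0278), Uqcrc1 (0.38, adjusted p-value 0.0269), Cox5a (0.62, adjusted p-value 0.0198) and Atp5a1 (0.49, adjusted p-value 0.00919). In trained muscle the medians of the nuclear genes were 0.27, 0.42, 0.41 and 0.32 with 3, 4, 2 and 2 genes called higher and none lower, where 5.98% of all genes tested were called. There, the mitochondrial members of complexes I, IV and V had medians of −0.03, 0.01 and −0.15, and mt-Cytb of complex III was at 0.11. The complex V median lay between mt-Atp6 at −0.06 and mt-Atp8 at −0.24. The reservation on length given above applies to mt-Atp8, and to mt-Nd4l in the complex I median. Training moved the nuclear medians of these complexes by −0.08 to −0.01 in labelled WT muscle and by −0.06 to 0.05 in labelled strNrip1-/- muscle, with no gene called.

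The mitochondrial to nuclear balance was expressed for each complex as the mean log2 FPKM of its mitochondrial mRNAs, without mt-Atp8 and mt-Nd4l, minus that of its nuclear mRNAs. For complex I it was 5.47 ± 0.079 (sedentary) and 5.60 ± 0.082 (trained) in libraries labelled WT, and 5.69 ± 0.137 (sedentary) and 5.22 ± 0.052 (trained) in those labelled strNrip1-/- (SD over 3 libraries each). The last group was at 5.51 ± 0.015 for complex III, where the other group means were 5.68 to 5.80. It was at 5.315 ± 0.057 for complex IV, against group means of 5.52 to 5.675, and at 5.36 ± 0.081 for complex V, against 5.565 to 5.72. In all 4 complexes the labelled strNrip1-/- trained libraries were below every other library. The margin was narrow in complex IV, with replicate 1 at 5.38 against 5.43 in labelled strNrip1-/- sedentary replicate 2. Complexes III and V each rested on 1 mitochondrial mRNA, mt-Cytb and mt-Atp6. Nuclear copies of mt-Nd3 and mt-Co2 were not added. The labelled strNrip1-/- trained group also had the shortest fragments, 336 to 340 nt against 342 to 358 nt in the other 9. mt-Nd3, about as long as a fragment, is in the complex I value. The lengths of the nuclear mRNAs, which enter the values of all 4 complexes, were not examined, and the part of fragment length was not tested. No test was made of this ratio, which was not chosen independently of the members' values, and it does not change with the scaling of libraries.

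**Figure D5:**
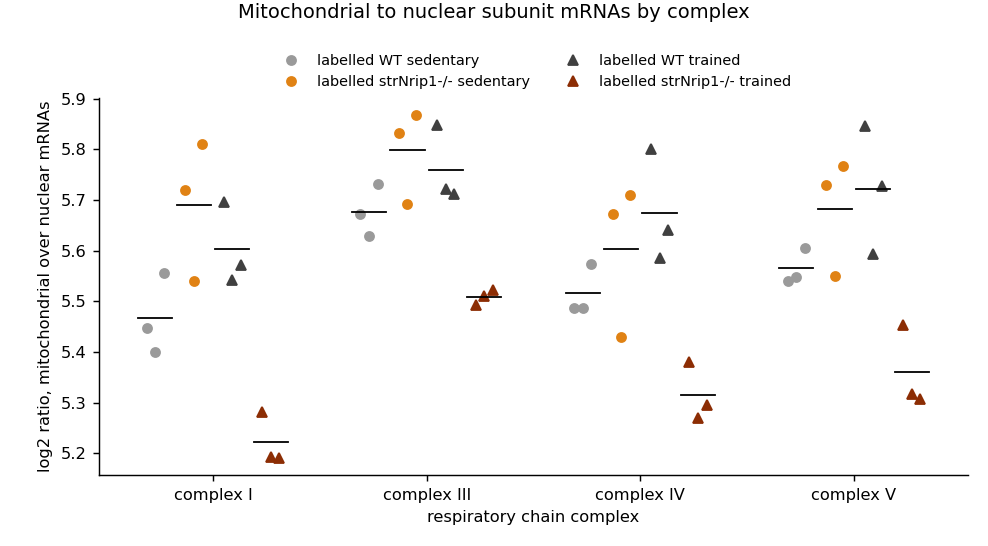
Mean log2 FPKM of mitochondrial subunit mRNAs minus that of nuclear subunit mRNAs (y axis) for respiratory chain complexes I, III, IV and V, with 3 points per labelled group and a line at the group mean. The labelled strNrip1-/- trained points are the lowest in each complex, for example 5.19 to 5.28 in complex I.

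Nuclear genes that act on the mitochondrial genome or its RNA were described by list. Of 15 genes for transcription and maintenance of mitochondrial DNA, none was called by limma in any comparison, and their median difference between labelled genotypes was 0.16 in sedentary and 0.11 in trained muscle. Of 24 genes for processing and stability of mitochondrial RNA, 3 were called higher in sedentary labelled strNrip1-/- muscle, where 3.51% of all genes tested were called, with a median of 0.20 over the list. Nsun4, which methylates mitochondrial ribosomal RNA, was at 0.47 (limma adjusted p-value 0.0273), Lrpprc, which stabilizes mitochondrial mRNAs, at 0.28 (adjusted p-value 0.0383), and Grsf1, an RNA-binding protein of mitochondrial RNA granules, was the third. In trained muscle 1 was called higher, Tbrg4, at 0.38 (adjusted p-value 0.0337), with a list median of 0.15, where 5.98% of all genes tested were called. No gene of either list was called for training, where medians ran from −0.05 to 0.04.

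Markers of fibers and of other cells were examined in the same libraries. The summed FPKM of the 10 fast-fiber markers was 132900 to 148600 in labelled WT sedentary and 99220 to 134300 in labelled strNrip1-/- sedentary libraries, and 2 of the 10 were called lower there (Actn3 and Mybpc2, log2 fold changes −0.90 and −0.56, limma adjusted p-values 2.52e-04 and 0.00344), against 3.51% of all genes called. In trained muscle 3 of 10 were called lower in labelled strNrip1-/-, against 5.98% of all genes called. None of the 8 slow-fiber markers was called. The summed adipocyte markers were at 12.4 to 25.5 FPKM in labelled WT sedentary and 43.1 to 116.0 FPKM in labelled strNrip1-/- sedentary libraries, and the endothelial ones at 122.8 to 129.9 and 126.1 to 157.0 FPKM. Macrophage markers were at 25.9 to 31.9 and 24.5 to 43.0 FPKM, blood markers at 753.0 to 1811 and 850.5 to 1834 FPKM, and Schwann cell markers at 104.9 to 150.9 and 79.5 to 108.5 FPKM in these groups. In trained libraries the adipocyte sums were 35.1 to 76.9 FPKM (labelled WT) and 43.8 to 113.4 FPKM (labelled strNrip1-/-). No adipocyte, blood, endothelial, macrophage or Schwann cell marker was called in any comparison, and the part of these cells in the mitochondrial values was not tested. The table held none of 7 RNAs that lack a poly(A) tail or stay in the nucleus, so the retention of such RNAs could not be compared between libraries.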

How the data were processed

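The 13 members and all gene lists were chosen with earlier results of these data known. EDL RNA was sequenced, and strand settings were not given in the sources used here. The authors used Salmon (version 1.10.2) on mm10, tximport for gene-level values, and DESeq2 (version 1.44.0). Expression values were deposited by the authors as FPKM for 17752 genes. How FPKM were computed and genes filtered was likewise not given. The 8 columns that hold the authors' log2 fold changes and adjusted p-values for 4 comparisons were not used.

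FPKM is not a count, so log2(FPKM + 0.5) was analyzed over 12744 genes (filter: mean FPKM 0.5 or more), with limma (version 3.58.1 in R 4.3.3, lmFit, contrasts.fit and eBayes with trend, 4 group means, all 12 libraries, two-sided, Benjamini-Hochberg over all genes). A fold change on this scale understates that of low genes. A gene was called at an adjusted p-value under 0.05 and a fold change above 1.2, and the interaction at the adjusted p-value alone. Steps were tested on simulated data. Depth and fragment length were fitted to the spacing of low values of 1613 genes with 1 transcript longer than 1500 nt, where 98.7% to 99.4% of values lay within 0.1 of a whole fragment number, against 20% by chance and 37.4% to 43.9% without the length term. Counting error only is covered. All mt- genes were named. From each list, values are given for at most 2 genes with the largest change among those called in a comparison. Nuclear copies were genes whose exons match the mitochondrial genome at 90% identity or more over most of their exons. Coordinates are 1-based on GRCm38. No replicate pair held identical values. Replicate numbers were not treated as pairing the samples, and correlations of same-numbered deviations ran from −0.10 to 0.24 over 18 pairs. The highest, 0.16, 0.195 and 0.24, joined replicate 2 of labelled WT sedentary, strNrip1-/- sedentary and WT trained. Labelled strNrip1-/- trained replicate 2 gave −0.10, −0.03 and −0.05 with these libraries. Whether equal numbers mark a shared batch was not given in the sources used here. Alternatives of pseudocount, filter, scaling, variance model, replicate block and left-out libraries were tried. Summing members with their copies, and scaling libraries to the 11 mt- mRNAs other than mt-Atp8 and mt-Nd4l, were chosen after seeing the data.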

Additional observations from a re-analysis of the deposited data

How the results depend on the processing

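Genotype comparisons in sedentary muscle called 1 member with a pseudocount of 0.1 or 1, without the variance trend and with copies summed (mt-Nd6 each time), 3 with a mean of at least 5 FPKM, 2 with the same sum over all genes, 12 with the same sum outside the mitochondrial genome and 3 with quantile normalization. Training in labelled strNrip1-/- muscle called 2, 1 and 1 members with the same sum over all genes, outside the mitochondrial genome and over the 11 mt- mRNAs. For all these settings the share of all genes called was not counted. No call was made without the low-value filter (5 members at an unadjusted p-value under 0.05 in the sedentary genotype comparison) or with only the 6 libraries compared (7 members). The replicate block changed no call, with counts at an unadjusted p-value under 0.05 of 13, 0, 0, 11 and 10 for both genotype comparisons, both training comparisons and the interaction, and 12 of 36 best matches between libraries were with the same replicate number.

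With the same sum over all genes, the medians of the members were 0.25 (genotype, sedentary), −0.17 (training, labelled strNrip1-/-) and −0.20 (interaction), where the medians of all genes were −0.14, 0.16 and 0.21. Signs turned for genotype in trained muscle in mt-Nd4 (0.036), mt-Atp6 (0.0061) and mt-Nd5 (0.038), for training in labelled WT in mt-Nd6 (−0.00069) and mt-Nd2 (−0.0083), and for mt-Co1 in training of labelled strNrip1-/- (0.082) and the interaction (0.050). With the same sum outside the mitochondrial genome they turned for genotype in trained muscle in mt-Nd4 (0.0092) and mt-Nd5 (0.011) and for training in labelled WT in mt-Nd1 (0.0013). With copies summed, mt-Co2 turned for genotype in trained muscle (0.089).

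With quantile normalization the 3 medians were 0.15, 0 and −0.12. A row that keeps its rank in every library gets a difference of 0 there by construction, which bears on members at the top of the table. Values that turned or fell to 0 were mt-Atp6 (0), mt-Nd4l (−0.067) and mt-Co1 (−0.097) for genotype in sedentary muscle, mt-Atp8 (0), mt-Atp6 (0), mt-Nd2 (0.052), mt-Nd4 (0.22) and mt-Nd5 (0.24) for genotype in trained muscle, mt-Co2 (−0.0017), mt-Nd2 (−0.026), mt-Co1 (−0.065), mt-Atp6 (0) and mt-Co3 (0) for training in labelled WT, mt-Atp8 (0), mt-Atp6 (0), mt-Co3 (0.00016) and mt-Co1 (0.17) for training in labelled strNrip1-/-, and mt-Atp6 (0), mt-Co3 (0.00016) and mt-Co1 (0.23) for the interaction.

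Scaling to the 11 mt- mRNAs, which was chosen after seeing the data, removes their shared change by construction and moves the medians of all genes to −0.36, 0.32 and 0.38 for the 3 comparisons, so its adjusted p-values are not comparable with the others. The members' medians were −0.0066, 0.0098 and −0.0046. An adjusted p-value under 0.05 was reached for training in labelled strNrip1-/- by mt-Co1 (0.26, limma adjusted p-value 0.0194), mt-Nd2 (−0.18, 0.0253) and mt-Nd3 (−0.59, 0.0286), of which mt-Nd3 alone was called, and for genotype in trained muscle by mt-Atp8 (−0.23, 0.0473). Signs turned for genotype in sedentary muscle in mt-Co3 (−0.0038), mt-Atp8 (−0.0066), mt-Cytb (−0.015), mt-Nd4 (−0.018), mt-Nd6 (−0.024), mt-Nd1 (−0.065), mt-Nd5 (−0.084) and mt-Co1 (−0.099), for training in labelled WT in mt-Cytb (−0.021), mt-Co3 (−0.023), mt-Nd6 (−0.026) and mt-Nd2 (−0.033), for training in labelled strNrip1-/- in mt-Co3 (0.00041), mt-Nd1 (0.0098), mt-Nd6 (0.019), mt-Nd4 (0.028), mt-Nd4l (0.068), mt-Nd5 (0.073), mt-Cytb (0.11) and mt-Co1, and for the interaction in mt-Co3 (0.023), mt-Nd6 (0.044), mt-Nd5 (0.063), mt-Nd1 (0.092), mt-Cytb (0.13) and mt-Co1 (0.25).

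Leaving out each library in turn gave 0 to 1 calls for genotype in sedentary muscle (1 without labelled WT trained replicate 2) and 0 in all other comparisons. It turned signs for genotype in trained muscle in mt-Atp6 (−0.13 to 0.00014), mt-Co2 (−0.21 to 0.023), mt-Co3 (−0.074 to 0.088), mt-Nd1 (−0.071 to 0.083), mt-Nd4 (−0.11 to 0.040), mt-Nd4l (−0.17 to 0.0050), mt-Nd5 (−0.11 to 0.039) and mt-Nd6 (−0.034 to 0.050), and for training in labelled WT in mt-Co2 (−0.0033 to 0.20), mt-Co3 (−0.028 to 0.13), mt-Cytb (−0.040 to 0.15), mt-Nd1 (−0.075 to 0.079), mt-Nd2 (−0.063 to 0.15) and mt-Nd6 (−0.0098 to 0.083). Without mt-Atp8 and mt-Nd4l in the sum, the log2 ratios of shares for training in labelled strNrip1-/- became 0.00063 (mt-Co3), 0.0097 (mt-Nd1), 0.027 (mt-Nd4) and 0.11 (mt-Cytb). The cause of these changes was not tested.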
